A study of Mus musculus with 9 samples.

Results

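The Klk1 and Klk1b genes of the kallikrein locus on mouse chromosome 7 were followed in thymic epithelial cells (TEC) after injection of recombinant amphiregulin (rAREG), which activates the EGF receptor. The deposited table held 15080 genes, of which 14 carry the symbol Klk1 or a symbol that starts with Klk1b. The members are the 10 selected on the largest sum of counts over all 9 libraries. Ranked by that sum they are Klk1, Klk1b9, Klk1b11, Klk1b16, Klk1b8, Klk1b22, Klk1b3, Klk1b4, Klk1b1 and Klk1b27. The last gene inside the limit, Klk1b27, had 190 counts in all, and the first outside it, Klk1b5, had 181. Levels over all libraries thus ranked the members, and the rule was set with earlier results of these data known.

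The rAREG group consisted of 5 libraries from young male wild-type mice that had received 1 µg rAREG by injection into the thymus. The vehicle group consisted of 4 libraries from age-matched male wild-type mice given PBS. Thymi were collected 10 days later, and sorted TEC were profiled in bulk by MARS-seq, which counts the 3′ ends of polyadenylated RNA by unique molecular identifiers (UMIs). The labels leave unsaid whether libraries came from different mice, so the p-values cover library-to-library spread that may be technical.

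Tissue kallikreins are secreted serine proteases. Klk1 releases vasoactive kinin peptides from kininogens, and rodents carry additional Klk1b copies that are best known from the ducts of the submandibular salivary gland. Among those copies, Klk1b9 and Klk1b22 are known as EGF-binding proteins. In the thymus, medullary TEC transcribe many genes of other tissues, which exposes developing T cells to the antigens of those tissues.

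The members are close copies of each other, which matters for 3′-end counting. On GRCm38 (GENCODE M21) all 10 lie on the plus strand of chromosome 7, between the start of Klk1b8 at 43950664 and the end of Klk1 at 44229618, each with 5 exons. Their 45 pairs shared 79.6% to 93.1% of aligned coding bases, with a median of 85.2%. The closest pair among the members was Klk1b1 and Klk1b9. The 3′ untranslated regions are only 45 to 49 bases long, so the ends of the transcripts that such libraries sample are largely coding sequence. The last 90 coding bases, stop codon included, are shown for 6 members to make the differences visible that separate their reads. Capitals mark bases that differ from Klk1b9.

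Klk1b9 (chr7:43980239-43980328, +): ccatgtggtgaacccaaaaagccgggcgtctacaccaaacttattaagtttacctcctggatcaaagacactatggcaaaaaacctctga

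Klk1b1 (chr7:43971184-43971273, +): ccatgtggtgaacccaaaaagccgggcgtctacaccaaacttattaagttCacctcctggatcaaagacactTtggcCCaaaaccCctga

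Klk1b22 (chr7:44116787-44116876, +): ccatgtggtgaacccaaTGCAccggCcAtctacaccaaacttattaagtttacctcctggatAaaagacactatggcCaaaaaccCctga

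Klk1b11 (chr7:43999737-43999826, +): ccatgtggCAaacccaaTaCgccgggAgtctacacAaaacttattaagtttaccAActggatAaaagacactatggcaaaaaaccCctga

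Klk1 (chr7:44229480-44229569, +): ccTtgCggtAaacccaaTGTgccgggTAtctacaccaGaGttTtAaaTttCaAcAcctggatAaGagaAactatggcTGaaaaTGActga

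Klk1b16 (chr7:44141472-44141561, +): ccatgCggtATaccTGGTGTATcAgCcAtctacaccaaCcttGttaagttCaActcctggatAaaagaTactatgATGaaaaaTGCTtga

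Klk1b1 differed from Klk1b9 at 5 of these 90 bases, Klk1b22 at 9, Klk1b11 at 10, Klk1 at 24 and Klk1b16 at 27. Over the last 300 bases of each transcript, windows of 50 bases were compared with every GENCODE transcript of other genes. Of the 251 windows of a gene, none was shared for Klk1b16, Klk1b8 and Klk1b4, 1 for Klk1b11, 13 each for Klk1b9 and Klk1b1, 14 for Klk1b27 and 24 for Klk1. The most were shared by Klk1b3 (48, or 19.1%) and Klk1b22 (63, or 25.1%), where the sharing genes were Klk1b21, Klk1b24 and Klk1b1. The sources used here do not give how reads matching several genes were counted, so single members with shared windows are uncertain to that extent. Strand use is likewise unstated; Gm44756 overlaps Klk1b8, Klk1b1 and Klk1b9 on the other strand, and Gm10109 overlaps Klk1. Neither of these was analysed here.

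The libraries held 1523246 to 2159115 UMI counts, and a count of 0 would allow up to 3 counts, equal to 1.39 to 1.94 CPM (UMI counts scaled to library size with TMM factors). This limit covers counting error only. The TEC markers Epcam, Krt5, Krt8, Krt14, Cd74 and H2-Aa summed to 23317 to 28652 CPM in rAREG and 21576 to 27285 CPM in vehicle. Of markers of other cells the sort could hold, thymocyte genes summed to 60.7 to 131 CPM in rAREG and 59.2 to 117 CPM in vehicle, and fibroblast genes to 225 to 515 CPM in rAREG and 259 to 870 CPM in vehicle. Endothelial genes summed to 11.2 to 38.1 CPM in rAREG and 22.4 to 45.3 CPM in vehicle, B cell genes to 31.1 to 42.6 CPM in rAREG and 24.7 to 33.9 CPM in vehicle, and dendritic and myeloid genes to 314 to 450 CPM in rAREG and 281 to 329 CPM in vehicle. None of these marker genes passed the test. Abundant enough to be tested were 6 of 6 TEC, 5 of 10 thymocyte and 4 of 7 fibroblast genes. So were 2 of 5 endothelial, 2 of 4 B cell and 3 of 7 dendritic and myeloid genes. The table holds no gene whose highest count is below 6, so no marker in it could be at 0 in all libraries. Cd3e, Ms4a1, Cd79a, Xcr1 and Siglech were not analysed here. In bulk TEC, fewer cells of a type and less RNA per cell cannot be told apart.

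The comparison asked how the kallikrein transcripts differed 10 days after rAREG. Klk1b1 rose, and none of the other 9 members passed the test. Over the whole table, edgeR's quasi-likelihood test with Benjamini-Hochberg adjustment called 0.559% of 11636 tested genes higher and 0.49% lower in rAREG (1.05% in either direction), at an adjusted p under 0.05. All 10 members passed the filter on low counts. At an unadjusted p under 0.05 there were 3 members, Klk1b1, Klk1b9 and Klk1b3, all higher in rAREG, against 13.3% of all tested genes in either direction and 6.82% higher in rAREG. The groups did not overlap for 1 member, Klk1b1, against 4.92% of all tested genes, made up of 2.48% with every rAREG library above and 2.44% with every rAREG library below. The median log2 fold change of the members was 0.19, with 7 of 10 above 0, and that of all genes tested was -0.0054, with 49.2% above 0.

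**Figure D1:**
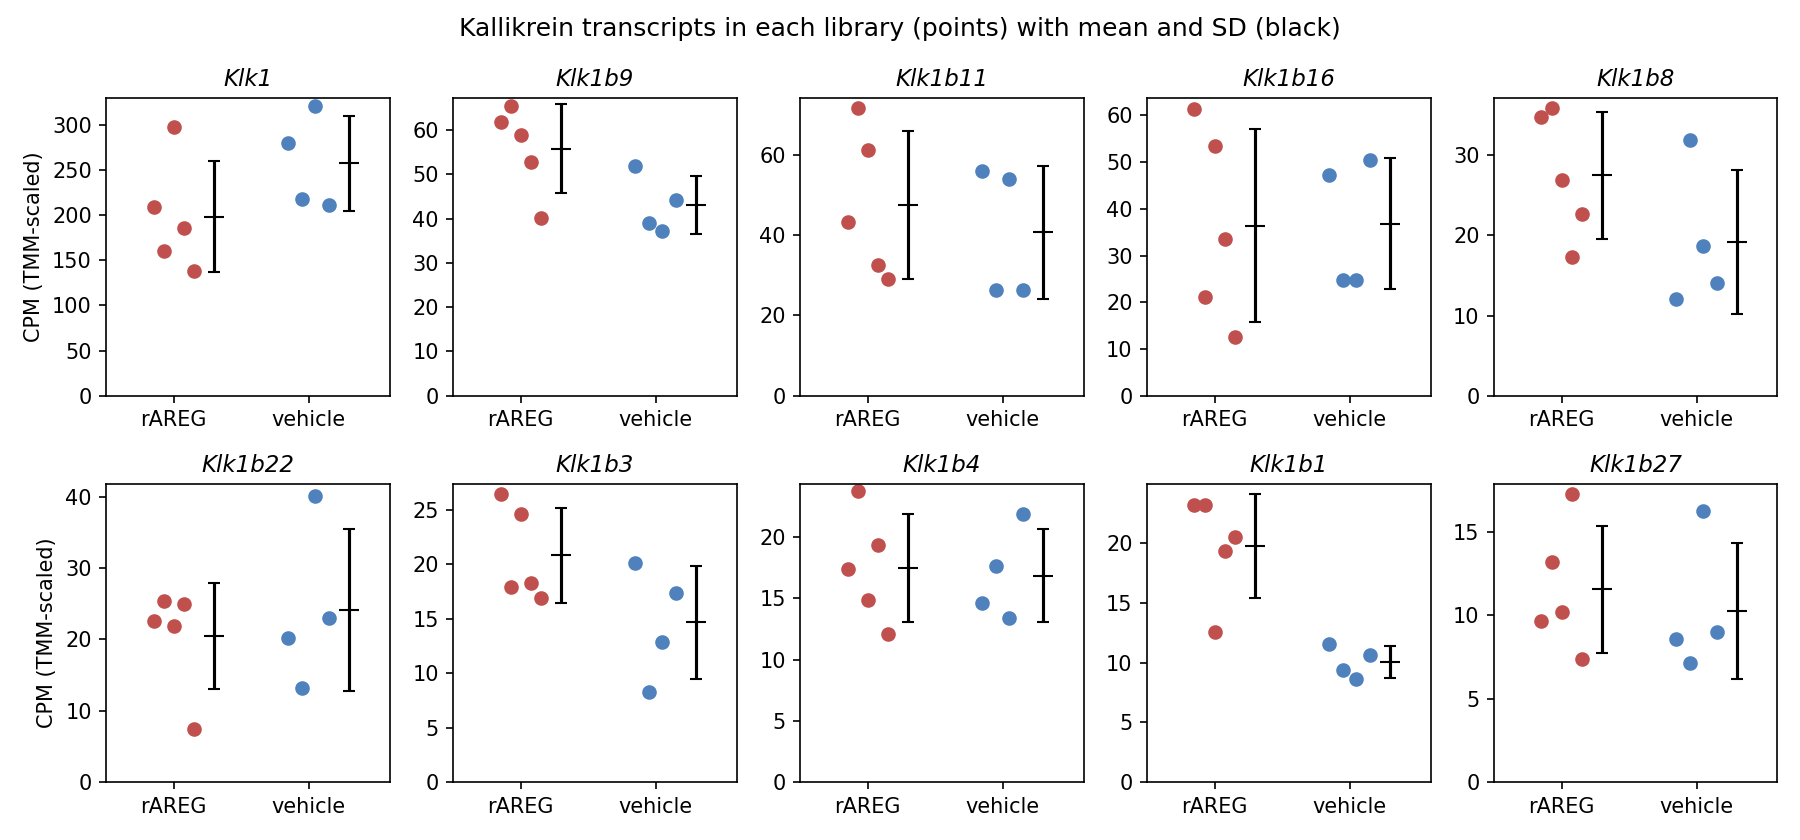
Level of each member (CPM, linear axis from 0) in every library, with rAREG points in red on the left and vehicle points in blue on the right; black marks give the mean and SD (n = 5 and n = 4). Klk1b1 is the member whose groups do not overlap; in the other 9 panels the points of both groups share a range.

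Klk1b1 (43966751 to 43971318) encodes a secreted protease of the family whose own substrates are little known. It stood at 23.2, 23.2, 12.5, 19.3 and 20.6 CPM in rAREG replicates 1 to 5, against 11.6, 9.36, 8.59 and 10.7 CPM in vehicle replicates 1 to 4. Every rAREG library was above every vehicle library, but rAREG replicate 3 lay close to the vehicle range. The means were 19.8 ± 4.39 CPM in rAREG (SD, n = 5) and 10.0 ± 1.33 CPM in vehicle (SD, n = 4). The fitted fold of rAREG over vehicle was 1.95. The log2 fold change was 0.96 ± 0.226 (SE; edgeR, adjusted p = 0.042). These levels rest on 27 to 44 UMIs per library in rAREG and 17 to 23 in vehicle.

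The call of Klk1b1 sat near the threshold. It held without rAREG replicate 3 (edgeR, adjusted p = 0.014) and without vehicle replicate 4 (0.045). It was lost without rAREG replicates 1, 2, 4 or 5 (0.087, 0.128, 0.081 and 0.066) and without vehicle replicates 1, 2 or 3 (0.093, 0.119 and 0.100), although the log2 fold change stayed between 0.90 and 1.11. DESeq2 gave an adjusted p of 0.031 and limma voom 0.092. For Klk1b1 the authors' deposited table gives a log2 fold change of -0.97 (vehicle over rAREG) and an adjusted p of 0.053.

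Beside Klk1b1, a list of medullary TEC genes from the Aire-expressing stage was tested. Of 13 tested genes of that list, 4 rose, none fell and 9 did not pass. Among the 11636 genes in the test, 0.559% were called higher and 0.49% lower. The list had a median log2 fold change of 0.45, beside -0.0054 for the 11636. All 13 lay above 0, against 49.2% of the 11636. An unadjusted edgeR p under 0.05 was found for 9 of 13, against 13.3% in either direction. The groups did not overlap for 5 of 13, against 4.92%. The list was set with earlier results known. Aire, which drives tissue-restricted transcription in medullary TEC, stood at 1159 ± 168 CPM in rAREG (SD, n = 5) and 729 ± 157 CPM in vehicle (SD, n = 4; edgeR, adjusted p = 0.037). Fezf2, another such regulator, stood at 625 ± 65.0 CPM in rAREG and 445 ± 59.99 CPM in vehicle (adjusted p = 0.042). The other genes that rose were Relb, an NF-κB subunit (adjusted p = 0.043), and the chemokine gene Ccl17 (adjusted p = 0.045). Summed over its 14 genes, the list reached 3461 to 4531 CPM in rAREG and 2336 to 3327 CPM in vehicle. Its part in the Klk1b1 difference was not tested.

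Klk1 (44225360 to 44229618), the kinin-releasing enzyme, was the most abundant member by far. It stood at 208, 160.4, 297, 186 and 138 CPM in rAREG, against 280.3, 217, 320.4 and 211 CPM in vehicle. The groups overlapped because rAREG replicate 3 was second highest of the 9 libraries, while the other 4 rAREG libraries lay below every vehicle library. The means were 198 ± 61.5 CPM in rAREG (SD, n = 5) and 257 ± 52.5 CPM in vehicle (SD, n = 4). The log2 fold change was -0.38 ± 0.218 (SE; edgeR, adjusted p = 0.50), and 2 SE to either side span -0.81 to 0.059. Without rAREG replicate 3 the log2 fold change was -0.56 (adjusted p = 0.078). Klk1 ranked 675th in mean level among the 11636 tested genes, above 94.2% of them.

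The EGF-binding member Klk1b9 (43976061 to 43980376) stood at 61.9, 65.4, 58.9, 52.9 and 40.0 CPM in rAREG and 51.8, 39.1, 37.2 and 44.3 CPM in vehicle. All but 1 of the rAREG libraries were above all vehicle libraries, and rAREG replicate 5 was inside the vehicle range. Its log2 fold change was 0.37 ± 0.152 (SE; edgeR, adjusted p = 0.28). Klk1b22 (44112673 to 44116922), the other EGF-binding member, stood at 22.6, 25.3, 21.8, 24.9 and 7.38 CPM in rAREG and 20.1, 13.2, 40.1 and 23.0 CPM in vehicle. All but 1 of the rAREG libraries were close together with replicate 5 far below them, and vehicle replicate 3 was the highest of all. Its log2 fold change was -0.25 ± 0.363 (adjusted p = 0.83), turning to 0.12 without vehicle replicate 3. Their partner Egf, the growth factor itself, was listed at 2.65 ± 1.63 CPM in rAREG (SD, n = 5) and 1.82 ± 0.619 CPM in vehicle (SD, n = 4), too low to be tested. Egfr, the receptor, stood at 36.8 ± 4.07 CPM in rAREG and 45.0 ± 6.03 CPM in vehicle (adjusted p = 0.37), and the endogenous ligand gene Areg at 18.3 ± 6.28 CPM in rAREG and 10.8 ± 3.88 CPM in vehicle (adjusted p = 0.25).

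Klk1b3 (44198191 to 44202352), which lies near Klk1 in the locus, stood at 26.4, 17.9, 24.6, 18.3 and 16.9 CPM in rAREG. It stood at 20.1, 8.26, 12.9 and 17.4 CPM in vehicle, so the groups overlapped, with vehicle replicate 2 the lowest library. Its log2 fold change was 0.50 ± 0.234 (SE; edgeR, adjusted p = 0.37). Klk1b4 (44207435 to 44211754), its neighbour towards Klk1, stood at 17.4, 23.7, 14.8, 19.3 and 12.1 CPM in rAREG and 14.6, 17.6, 13.4 and 21.9 CPM in vehicle. These ranges nearly coincide, and the log2 fold change was 0.059 ± 0.221, with 2 SE to either side spanning -0.38 to 0.50 (adjusted p = 0.94).

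Among the remaining members, Klk1b11 (43995877 to 43999875) stood at 43.2, 71.7, 61.2, 32.6 and 29.0 CPM in rAREG and 55.9, 26.4, 54.0 and 26.4 CPM in vehicle. Both groups spread widely and overlapped, and the log2 fold change was 0.22 ± 0.354 (SE; edgeR, adjusted p = 0.85). Klk1b16 (44136767 to 44141610), named γ-renin in the submandibular gland, stood at 61.3, 21.1, 53.3, 33.6 and 12.6 CPM in rAREG and 47.3, 24.8, 24.8 and 50.5 CPM in vehicle. Its highest and lowest libraries were both in rAREG, and the log2 fold change was -0.024 ± 0.480 (adjusted p = 0.99).

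Klk1b8 (43950664 to 43954941) stood at 34.8, 35.9, 26.9, 17.3 and 22.7 CPM in rAREG and 12.1, 31.9, 18.6 and 14.02 CPM in vehicle. Vehicle replicate 2 was the vehicle library inside the upper rAREG range, and the log2 fold change was 0.52 ± 0.281 (SE; edgeR, adjusted p = 0.45). Without vehicle replicate 2 it was 0.87, still without passing (adjusted p = 0.15). Klk1b27 (44052290 to 44056712) stood at 9.68, 13.2, 10.2, 17.3 and 7.38 CPM in rAREG and 8.55, 7.16, 16.2 and 8.97 CPM in vehicle. It was the lowest member, its groups overlapped almost fully, and the log2 fold change was 0.17 ± 0.293 (adjusted p = 0.86).

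Set side by side, the mean levels over 9 libraries fell into an order of Klk1 (224 CPM), Klk1b9 (50.2), Klk1b11 (44.5), Klk1b16 (36.6), Klk1b8 (23.8), Klk1b22 (22.0), Klk1b3 (18.1), Klk1b4 (17.2), Klk1b1 (15.4) and Klk1b27 (10.96). These are UMI counts, in which each molecule is tagged at its 3′ end, and were not divided by length. Klk1 exceeded Klk1b9 in 9 of 9 libraries, and Klk1b1 exceeded Klk1b27 in 8 of 9. For adjacent ranks between them the higher mean was the higher value in 4 to 6 of 9 libraries, so the order within such pairs did not exceed their spread. Ranks further apart could separate, as the lowest Klk1b9 library (37.2 CPM) was above the highest Klk1b8 library (35.9 CPM).

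The summed members reached 509, 458, 582, 422 and 307 CPM in rAREG and 522, 395, 546 and 428 CPM in vehicle. The means were 455 ± 103 CPM in rAREG (SD, n = 5) and 473 ± 72.7 CPM in vehicle (SD, n = 4), so the total differed by less than the spread within either group. Without Klk1 the sum was 257 ± 56.0 CPM in rAREG and 216 ± 27.3 CPM in vehicle. Klk1 supplied 40.9%, 35.0%, 51.1%, 44.1% and 45.0% of the members' UMIs in rAREG, against 53.7%, 55.0%, 58.7% and 49.3% in vehicle. The shares overlapped between rAREG replicate 3 and vehicle replicate 4. Klk1b1 supplied 4.61% on average in rAREG and 2.16% in vehicle. These shares are given as a description, with no test.

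**Figure D2:**
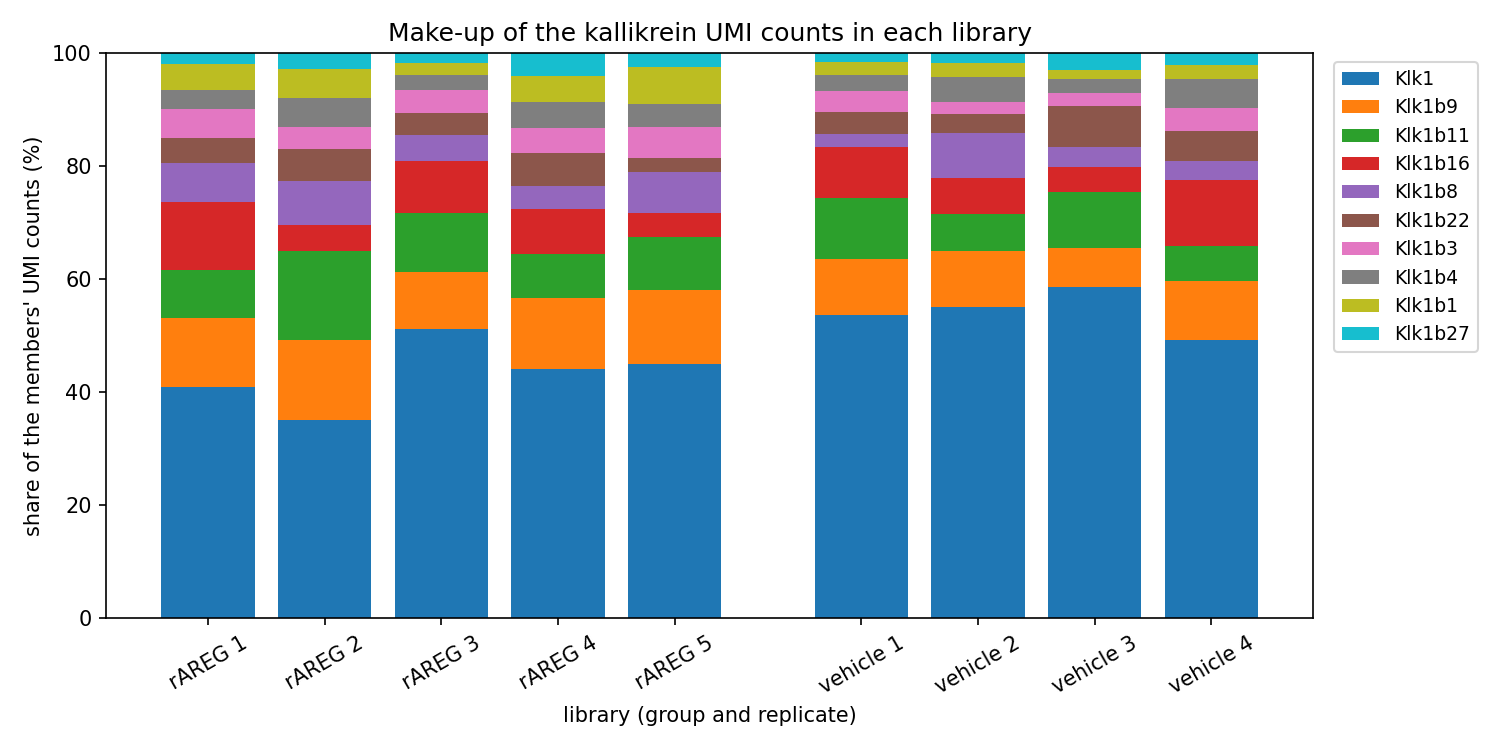
Share of the members' UMI counts (%) taken by each of the 10 members in every library, with rAREG libraries left of vehicle libraries. Klk1 takes 35.0% to 51.1% in rAREG and 49.3% to 58.7% in vehicle, and Klk1b1 averages 4.61% in rAREG and 2.16% in vehicle.

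For 9 of 10 members the spread between libraries was above that of at least 61.2% of tested genes. The biological coefficient of variation (BCV), the relative spread between libraries of a group beyond counting noise, had a median of 0.23 over the 10 members and 0.15 over all genes tested. For the 7623 genes at 10 to 100 CPM the median was 0.14 and the 90th percentile 0.21. Klk1b16 (0.49), Klk1b22 (0.35) and Klk1b11 (0.35) were more variable than 99.0%, 97.6% and 97.5% of all genes tested. Klk1b9 (0.14), close in level to Klk1b11, was more variable than 41.4%, and Klk1b1 (0.16) than 61.2%. The highest library changed from member to member: rAREG replicate 2 was highest of its group for 5 members and replicate 1 for 3. At the low end, rAREG replicate 5 was lowest of its group for 8 of 10 members, Klk1b1 and Klk1b8 being the exceptions.

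**Figure D3:**
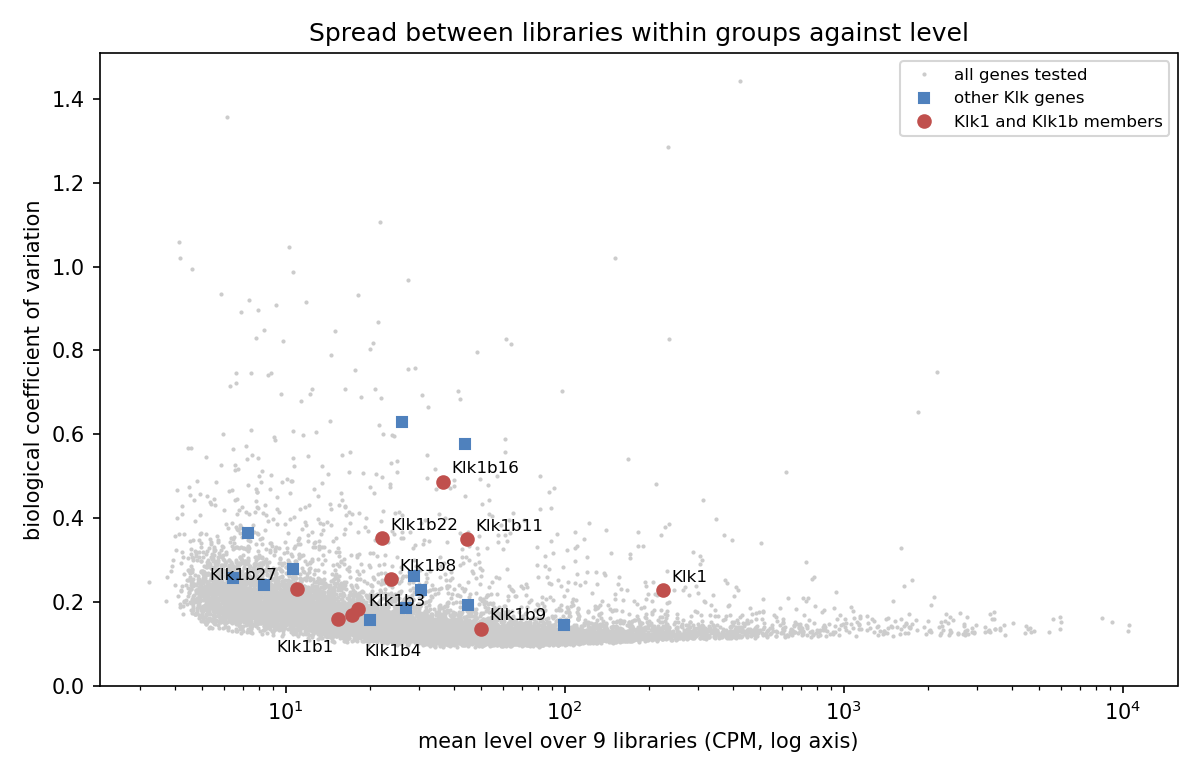
Biological coefficient of variation within groups against mean level (CPM, log axis) for all 11636 tested genes (grey), the 10 members (red, named) and the other tested Klk genes (blue). Klk1b16, Klk1b22 and Klk1b11 stand above most genes of like level, and Klk1b9 lies within the cloud.

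The other Klk genes of the locus are relatives in the skin and other epithelia rather than recent copies of Klk1. The table held 11 of them, Klk4 to Klk14, of which 10 were abundant enough to be tested. None passed, and 9 of 10 had a log2 fold change above 0, beside 49.2% of all genes tested. The median was 0.44, beside -0.0054 for all genes tested. Summed over the 11 genes, they reached 312 to 432 CPM in rAREG. In vehicle replicates 1 to 4 the sums were 345, 201, 234 and 354 CPM, so the groups overlapped. Klk7, a protease of skin shedding, stood at 112 ± 15.8 CPM in rAREG (SD, n = 5) and 83.5 ± 19.0 CPM in vehicle (SD, n = 4), which gave 0.41 ± 0.143 on the log2 scale (SE; edgeR, adjusted p = 0.18). Klk4, known for enamel maturation, stood at 53.9 ± 11.6 CPM in rAREG and 33.6 ± 12.6 CPM in vehicle, which gave 0.69 ± 0.210 (adjusted p = 0.14). Klk14 gave 0.47 ± 0.250 (adjusted p = 0.45). Without vehicle replicate 4 Klk4 passed (0.98, adjusted p = 0.0068), as did Klk14 (0.81, adjusted p = 0.048). That fit called 230 genes over the whole table, beside 122 with all libraries. Both genes passed in 1 of 9 fits that left out a single library. Klk10 (1.14 ± 0.627) and Klk6 (0.16 ± 0.576) were the most variable of the locus, with a BCV of 0.63 and 0.58. Klk5, Klk9, Klk12, Klk13 and Klk8 had log2 fold changes of 0.24, 1.012, 0.82, 0.16 and -0.085, with adjusted p of 0.17 or more, and Klk11 was not tested.

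Of the 4 Klk1b genes below the limit, Klk1b21 and Klk1b5 were tested. Klk1b21 stood at 4.31 ± 1.17 CPM in rAREG (SD, n = 5) and 9.21 ± 4.47 CPM in vehicle (SD, n = 4). Its log2 fold change was -1.08 ± 0.355 (SE; edgeR, adjusted p = 0.15), with overlapping groups. It shared 34.3% of its end windows with other genes. Klk1b5, the closest relative of Klk1 with 95.2% of aligned coding bases in common, stood at 10.5 ± 3.32 CPM in rAREG and 10.7 ± 5.73 CPM in vehicle (-0.049 ± 0.331, adjusted p = 0.97). Klk1b24 and the pseudogene Klk1b7-ps were too low to be tested.

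**Figure D4:**
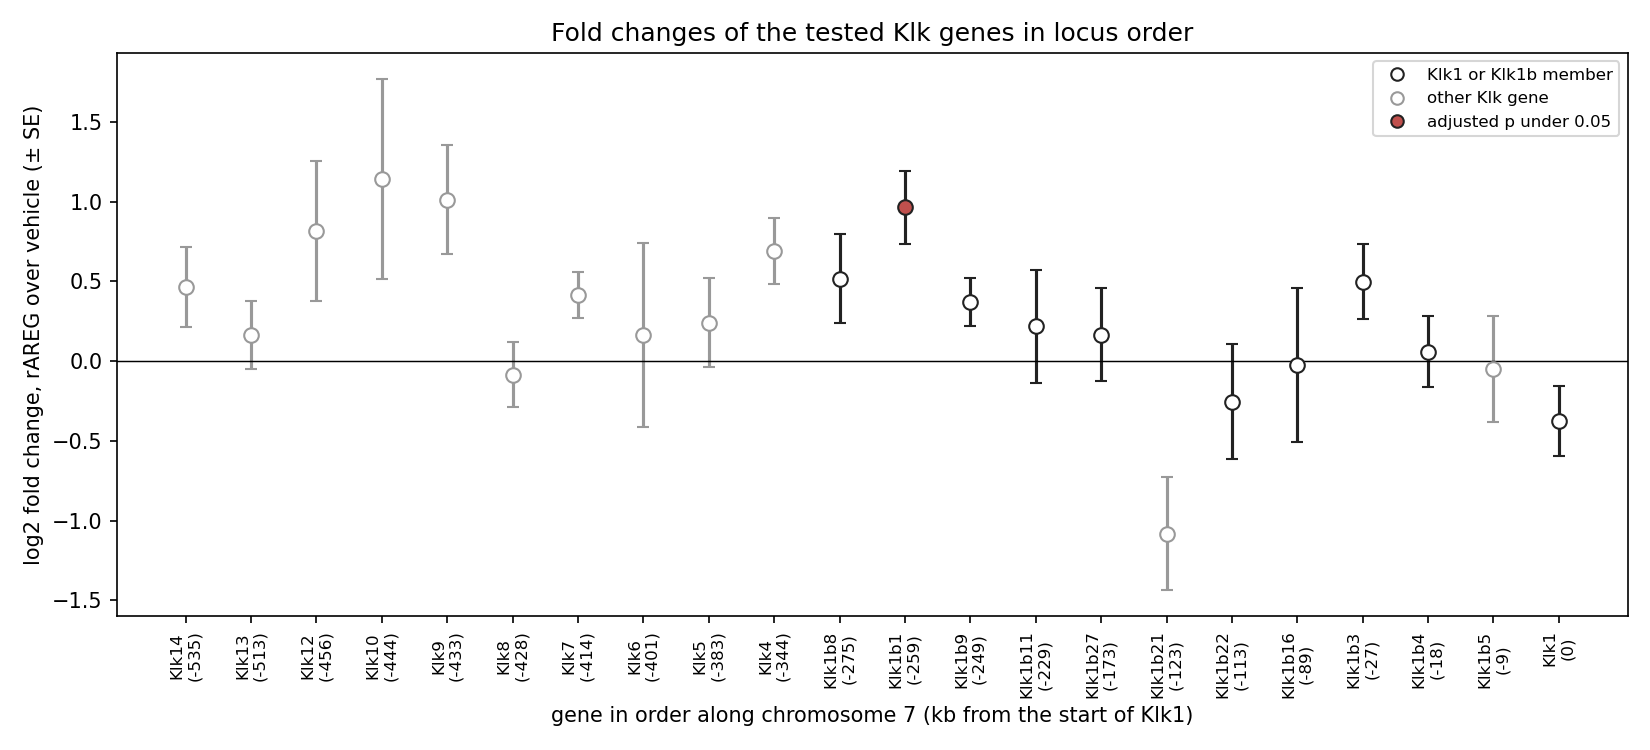
Log2 fold change of rAREG over vehicle with its SE for the 22 tested Klk genes, in their order along chromosome 7, with the distance from the start of Klk1 in kb in brackets. Klk1b1 is the filled point; 9 of 10 genes from Klk14 to Klk4 lie above 0, and Klk1 at the far end lies at -0.38.

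Beyond the locus, the 20 nearest genes in the table on each side gave 27 tested genes. Of these 27, 1 rose, none fell and 26 did not pass, beside 0.559% of all genes tested called higher and 0.49% lower. Their median log2 fold change was 0.18, beside -0.0054 for all genes tested. The gene that rose, named after its values were seen, was Atf5, a stress-response transcription factor, at 329 ± 53.3 CPM in rAREG (SD, n = 5) and 223 ± 22.2 CPM in vehicle (SD, n = 4; edgeR, adjusted p = 0.030). Of other genes known from the salivary gland, 8 of a list of 20 were tested and none passed, with a median of 0.13. Of these 8, 4 lay above 0 and 4 below, and 4 had an unadjusted edgeR p under 0.05, beside 13.3% of all genes tested. Lpo, the lactoperoxidase of saliva, stood at 429 ± 63.7 CPM in rAREG and 348 ± 46.8 CPM in vehicle (adjusted p = 0.27), and Dcpp3 at 10.4 ± 2.93 CPM in rAREG and 5.66 ± 2.76 CPM in vehicle (adjusted p = 0.24). Car6, a secreted carbonic anhydrase named here after its values were seen, lay the other way at 17.98 ± 2.55 CPM in rAREG and 36.3 ± 27.8 CPM in vehicle (adjusted p = 0.36). Of the kallikrein-kinin list, 6 of 13 genes were tested and none passed, 4 above and 2 below 0, with a median of 0.31. Kng2, a kininogen and thus a substrate, stood at 6.39 ± 1.58 CPM in rAREG and 3.96 ± 2.39 CPM in vehicle (adjusted p = 0.48), and Cpn1, which inactivates kinins, at 20.8 ± 2.45 CPM in rAREG and 16.6 ± 1.76 CPM in vehicle (adjusted p = 0.45).

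The 60 bases before the RefSeq start (GRCm38.p6) are shown for Klk1b1, which rose, for Klk1b9, its closest relative, and for Klk1. Capitals mark TTTAAA, a variant of the TATA box that reads the same on both strands.

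Klk1b1 (chr7:43966691-43966750, +): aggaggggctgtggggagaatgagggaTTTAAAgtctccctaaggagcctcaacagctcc

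Klk1b9 (chr7:43976001-43976060, +): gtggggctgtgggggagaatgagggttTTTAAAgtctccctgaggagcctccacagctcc

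Klk1 (chr7:44225300-44225359, +): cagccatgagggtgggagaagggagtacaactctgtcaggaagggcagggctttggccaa

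All 10 members had a promoter in the RefSeq table, and 9 held TTTAAA within these 60 bases, Klk1 being the exception. The annotated start places the window, and matches outside it were not looked for, so Klk1 may hold one elsewhere. Among 32851 promoters of the table, which leave out a single chromosome that holds no members, 2.79% held TTTAAA in the same window. The members are close copies of each other, so their matches are not independent. Of the Klk1b genes below the limit, Klk1b5 and Klk1b24 held TTTAAA and Klk1b21 did not. The letters TATAAA were in the window of none of the 10 members and of 3.92% of those 32851 promoters, on either strand. In Klk1b1 and Klk1b9 the match began 33 bases before the start. Over the 9 members that held it, this distance ranged from 13 (Klk1b3) to 48 bases (Klk1b4). These matches describe letters in a window only.

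By profile over the 9 libraries, with group means taken out, genes near to the summed members included Ankrd22, Ifit2, Dclk1 and Entpd5, out of 9331 other genes with at least 10 CPM. The root-mean-square distance between scaled profiles was 0.30 to 0.39 for these 4 genes, beside a median of 1.42 over the genes searched. They were picked for the smallest distances, so values below that median follow from the choice.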

How the data were processed

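Sorted TEC of male mice were profiled by MARS-seq, per the labels' protocols: 5 rAREG and 4 vehicle libraries, grouped by sample title. Per the submitters' processing notes, the build was mm10 and the tools, with no roles stated, included STAR 2.5.2b, HTSeq, cutadapt, bcl2fastq and DESeq2. Every test used the raw UMI counts of the deposited table. It also held a normalized signal (the authors' counts divided by size factors of 0.824 to 1.15, equal to the raw counts within 1e-06 when multiplied back, for 100% of values), regularised log2 values, and a fit by the authors with log2 fold changes (vehicle over rAREG) and p-values. The lowest maximum of any gene was 6 counts, so genes below that are not in this table.

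The test was the robust quasi-likelihood F test of edgeR 4.0.16 (R 4.3.3) after TMM scaling and filterByExpr, over 11636 genes, with Benjamini-Hochberg adjustment; 3444 genes were left out. SE values were derived as the absolute log2 fold change over the square root of F. Libraries differed from each other by a chi-square of at least 2.54 per degree of freedom, so none repeated another within counting noise. The fit was tested on simulated data with known changes. It recovered 28% of the genes changed 1.5-fold and 71.4% of those changed 2-fold, and 7.1% of its calls were false. Positions, transcripts and windows of 50 bases come from GENCODE M21 (GRCm38, the build called mm10), and promoters from RefSeq (GRCm38.p6); coding sequences were aligned with Biopython 1.88.

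The members, lists and tests were chosen with earlier results of these data known. Named genes were all members and other Klk genes, Aire, Fezf2, Egf, Egfr and Areg, the called genes of each list or else the 2 with the smallest p, of which some are not printed, and the nearest profiles; some items that the rule names are not reported here. Alternatives were RLE or total-count scaling, no filter or a filter of 10 counts in 4 libraries, DESeq2 1.42.0, limma 3.58.1 voom, replicate blocks, and leaving out each library.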

Additional observations from a re-analysis of the deposited data

Results flagged for a closer look

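Klk1b22 stood at 7.38 CPM in rAREG replicate 5, with the nearest of the other 4 rAREG libraries at 21.8 CPM. That gap is 0.80 of the range of the group, above Dixon's 95% critical value of 0.71 for 5 libraries. Of 22 groups of values looked at in this way (10 members and their sum in both treatments) this was the only one, and chance alone flags about 5% of groups. The same library was the lowest of its group for 8 of 10 members and for their sum, at 307 CPM. Without it the log2 fold change of Klk1b22 was -0.034 (edgeR, adjusted p = 0.98). The cause was not tested.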

How the results depend on the processing

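Of 170 alternative values for the 10 members, 148 kept their direction and side of the threshold, 8 lost a call (all of Klk1b1) and 14 changed sign, each of a member that did not pass. The members called numbered 1 in the edgeR fit, 0 with limma voom, and 0 to 1 without single libraries. Over all genes 122 were called by edgeR, 198 by DESeq2, 75 by limma voom and 18 to 230 without single libraries (58, 28 and 54 without rAREG replicates 1, 2 and 4; 18, 43 and 230 without vehicle replicates 1, 2 and 4). With the replicate block by title number, 308 were called, 117 of them among the 122, and with the block by library number 165. Same-numbered libraries had correlations of -0.025 to 0.17 by title and -0.036 to 0.080 by library number, with group means taken out. With so few shared numbers, these values cannot decide whether the numbers pair libraries. Klk1b1 had 0.94 in log2 in the block by title. Klk1b16 turned to 0.0032 with total-count scaling, 0.19 in the block by title, and ranged from -0.26 to 0.20 without single libraries. Klk1b22 turned to 0.012 in the block by title (-0.45 to 0.12 without single libraries) and Klk1b27 to -0.0099 in the block by library number (-0.024 to 0.50). Klk1b4 ranged from -0.077 to 0.21 without single libraries. Outside the members, Klk1b5 turned to 0.054 with limma voom, 0.046 and 0.045 in the blocks by title and library number (-0.27 to 0.24 without single libraries). Klk6 turned to -0.024 with limma voom and -0.27 in the block by library number (-0.20 to 0.46), and Klk8 ranged from -0.21 to 0.082. Klk4, which did not pass in the edgeR fit, passed in the block by library number (0.72, adjusted p = 0.024). Causes were not tested. Klk1b1 rests on 17 to 44 UMIs per library, which limits its precision.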
